A study of Mus musculus with 16 samples.

Results

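The expression of 28 genes that mark neurons was followed across 16 arrays of RNA from the palate of mouse embryos with and without Erk2 in the neural crest. The genes were chosen by name as components of neurons. The rule sets no value or threshold from these arrays, but the list was made with earlier results of these data known. Each gene was read from its probe set with the highest mean, taken among probe sets that the platform annotation gives to that gene alone. All 28 were among the 18193 genes measured in this way. Of these, 14 reached log2 4 on at least 3 arrays and so were among the 11115 genes tested.

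The study deleted Erk2, which encodes a kinase of the MAP kinase cascade, in the neural crest and profiled the palate while its shelves grew and were brought together. At E13.5 there were 3 mutant and 3 control arrays, and at E14.5 there were 5 mutant and 5 control arrays. All embryos were C57BL/6J and all carried the floxed Erk2 allele in both copies. The controls are Erk2 fl/fl by the genotype labels, although the sample titles call them wild-type. The mutants also carried Wnt1-Cre, a Cre transgene active in the neural crest and the dorsal neural tube. A batch is named for the E14.5 samples alone: replicates 1 and 2 of both genotypes belong to batch 1, and replicates 3, 4 and 5 to batch 2. The labels give the tissue as palate mesenchyme, while the series text speaks of primary palatal mesenchymal cells. The number of embryos behind an array is not given in the sources used here, so that p-values measure the spread between these samples, which may be technical. The level of Erk2 itself was not used here, and expression therefore gives no check of genotype.

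The palate contains no brain tissue, but nerves grow into it. Its sensory axons come from neurons whose cell bodies lie outside it, in the trigeminal ganglion, and parasympathetic neurons of the pterygopalatine ganglion lie close above it. Neuronal messenger RNA is found mainly in cell bodies, with a smaller share in axons. Autonomic neurons, some trigeminal sensory neurons and Schwann cells descend from the neural crest, where Wnt1-Cre is active. In bulk RNA of this kind, fewer cells of a type and less RNA per cell cannot be told apart.

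The arrays carried the markers of palatal mesenchyme, but not those alone. All 11 mesenchyme markers measured, among them Osr2, Prrx1 and Pdgfra, were tested, with list means per array from 8.55 to 8.82 (log2) at E13.5 and from 8.04 to 8.19 at E14.5. Means over 11 markers of oral epithelium ranged from 7.03 to 7.71 over all arrays, and means over 20 markers of skeletal muscle from 4.51 to 6.71. The medians of the arrays lay between 3.39 and 3.44 at E13.5 and between 1.63 and 1.66 at E14.5, so the deposited values of the stages are not on one scale and levels are compared within a stage.

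Single arrays stood apart from the rest in the neuron genes. In the E13.5 set, mutant 2 had the highest value of the 6 arrays for 21 of the 28 neuron genes, while it had the highest value for 9.38% of all genes measured. In the E14.5 set, mutant 3 was highest of the 10 arrays for 13 of the 28, against 7.84% of all genes measured. The mean over the 28 genes was 4.44 in E13.5 mutant 2, against 3.87 and 3.68 in the other mutants and 3.61, 3.76 and 3.64 in the controls. At E14.5 it was 3.17, 2.99, 3.52, 2.69 and 2.85 in mutants 1 to 5 and 2.94, 3.31, 2.75, 2.97 and 2.66 in controls 1 to 5. The highest array of the controls at E14.5 was thus control 2, which lay above 4 of the 5 mutants, although it was the highest of the 10 arrays for 3 of the 28 genes alone (Tubb3, Ina and Rbfox3). The 5′ minus 3′ difference of the Actb control probe sets falls as RNA degrades. In E13.5 mutants 1 to 3 it was -0.98, -1.06 and -0.98, and in controls 1 to 3 it was -1.02, -1.20 and -1.34. It was -1.17 in E14.5 mutant 3 and -1.26 in E14.5 control 2. At E14.5 it was lowest in control 5 (-1.61) and mutant 4 (-1.38), the arrays with the lowest neuron gene means, against -1.26 to -1.06 on the other 8, and its part in these means was not tested.

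**Figure D1:**
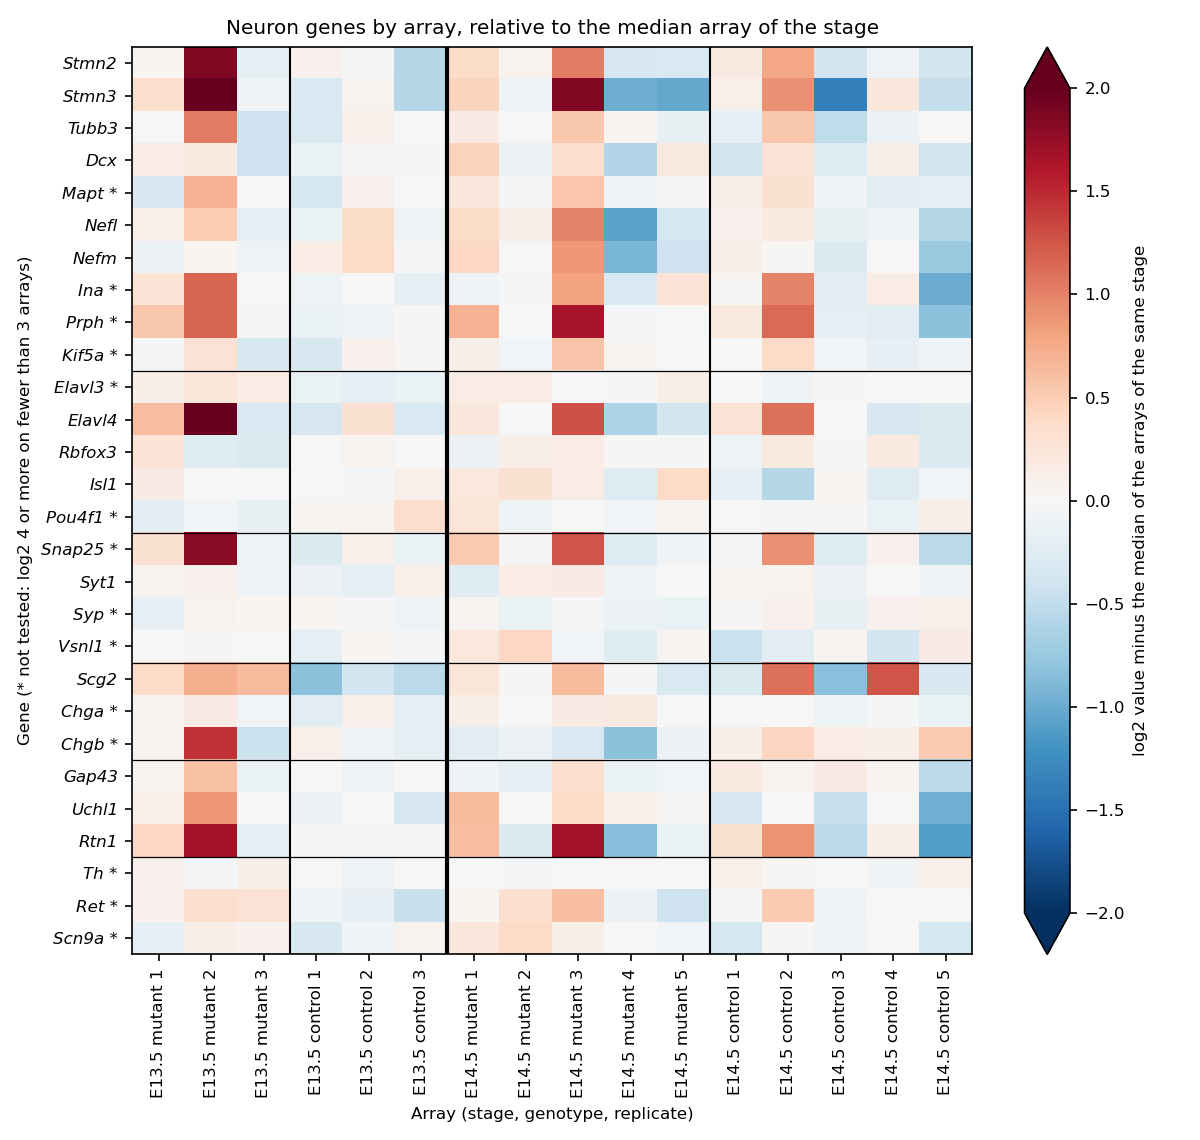
Heat map of the 28 neuron genes (rows, grouped by role) on the 16 arrays (columns). The colour is the log2 value minus the median of the arrays of the same stage, with red for higher and blue for lower, and an asterisk marks the 14 genes that were not tested. The red columns are E13.5 mutant 2, E14.5 mutant 3 and E14.5 control 2, and Stmn3 and Elavl4 in E13.5 mutant 2 lie beyond the end of the scale.

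The cytoskeletal genes showed this most plainly. Stmn2 encodes a stathmin that destabilises microtubules in growing axons. At E13.5 its log2 value was 4.95, 6.77 and 4.74 in mutants 1 to 3 and 5.00, 4.89 and 4.34 in controls 1 to 3. Mutant 2 was at 3.69-fold the median of the other 5 arrays, and the remaining mutants lay among the controls. At E14.5 Stmn2 was 5.23, 4.93, 5.89, 4.52 and 4.57 in the mutants and 5.04, 5.64, 4.48, 4.80 and 4.50 in the controls. Mutant 3 and control 2 were the high arrays, and the genotypes overlapped. The genotype difference was 0.74 ± 0.46 at E13.5 and 0.13 ± 0.36 at E14.5, and neither passed the test (adjusted p = 0.637 and 0.891 by limma).

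Stmn3, a second neuronal stathmin, had a wider spread. Its values at E13.5 were 4.33, 6.36 and 3.92 in the mutants and 3.68, 4.06 and 3.43 in the controls. At E14.5 they were 4.64, 4.08, 6.04, 3.21 and 3.17 in the mutants and 4.29, 5.10, 2.83, 4.42 and 3.72 in the controls. The high arrays were those of Stmn2, with E13.5 mutant 2 at 5.39-fold and E14.5 mutant 3 at 3.88-fold the median of the other arrays of their stage. The difference between mutants and controls was 1.15 ± 0.72 (log2, moderated standard error, n = 3 and 3) at E13.5, with an adjusted p of 0.644 by limma, and 0.16 ± 0.56 (n = 5 and 5) at E14.5, with an adjusted p of 0.921. Once its group means were taken out, Stmn3 varied more between arrays than 99.9% of the genes tested.

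The other cytoskeletal genes followed the same arrays to different degrees. Tubb3, the neuronal beta-tubulin, was 5.38 in E13.5 mutant 2 and from 3.92 to 4.44 on the other 5 arrays of that stage. Ina, which encodes the filament protein alpha-internexin, reached 3.73 in E13.5 mutant 2 against at most 2.85 elsewhere at E13.5. Prph encodes peripherin, an intermediate filament of neurons with axons in the periphery. Prph was 3.04, 3.67 and 2.48 in the E13.5 mutants and 2.37, 2.40 and 2.53 in the controls. At E14.5 Prph was 3.67, 2.98, 4.63, 2.95 and 2.97 in the mutants and 3.17, 4.11, 2.78, 2.76 and 2.15 in the controls. It was highest in mutant 3 and next in control 2, as Stmn2 and Stmn3 were.

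The neurofilaments, which fill large axons, departed from this order. Nefl encodes the light chain and Nefm the medium chain. Nefl at E13.5 was 6.08, 6.48 and 5.78 in the mutants and 5.84, 6.35 and 5.88 in the controls, so that mutant 2 exceeded control 2 by little. Nefm was 5.75, 5.90 and 5.76 in the mutants and 6.00, 6.25 and 5.83 in the controls, with control 2 the highest. At E14.5 mutant 3 was the highest array for both, at 5.80 for Nefl and 6.04 for Nefm, and mutant 4 the lowest, at 3.75 and 4.26. Control 2 did not stand out at E14.5, with 5.00 for Nefl and 5.19 for Nefm.

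Dcx encodes doublecortin, a microtubule protein of young neurons, and its values were close together at E13.5. They were 5.56, 5.60 and 5.01 in the mutants and 5.28, 5.45 and 5.39 in the controls. Another Dcx probe set gave 3.50, 4.81 and 3.24 in the mutants and 4.43, 4.42 and 4.92 in the controls, so the probe sets of this gene disagree on the order of the arrays. Mapt (tau) and Kif5a (a kinesin motor of axons) stayed below log2 4 on every array and were not tested. Both were still highest in E13.5 mutant 2, at 3.08 for Mapt and 3.10 for Kif5a, and in E14.5 mutant 3, at 2.42 and 2.00.

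**Figure D2:**
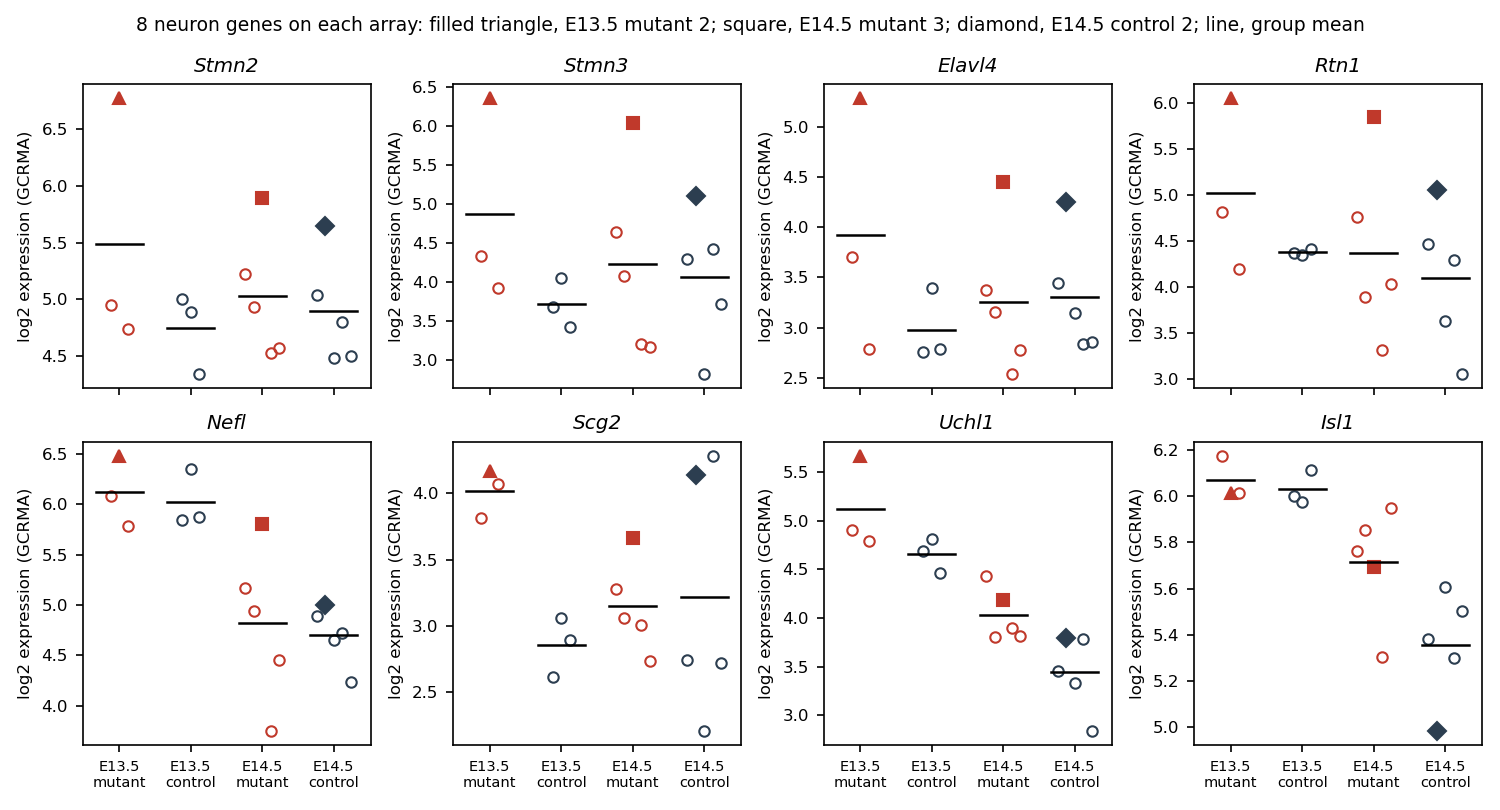
Log2 expression of 8 neuron genes on each array by stage and genotype (red, mutants; dark, controls; horizontal line, group mean). The filled triangle is E13.5 mutant 2, the filled square E14.5 mutant 3 and the filled diamond E14.5 control 2. For Stmn2, Stmn3, Elavl4 and Rtn1 the filled symbols are the highest of their groups, while for Isl1 the diamond is the lowest E14.5 array.

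Among the RNA-binding and nuclear proteins, Elavl4 had the same high arrays as the stathmins. Elavl4 encodes a neuronal protein that stabilises messenger RNAs. It was 3.70, 5.28 and 2.79 in the E13.5 mutants and 2.75, 3.39 and 2.79 in the controls, with mutant 2 at 5.63-fold the median of the other 5 arrays. At E14.5 it was 3.37, 3.16, 4.44, 2.54 and 2.78 in the mutants and 3.44, 4.25, 3.14, 2.83 and 2.86 in the controls. The difference between genotypes was 0.95 ± 0.55 at E13.5 (adjusted p = 0.609 by limma) and -0.05 ± 0.43 at E14.5 (adjusted p = 0.972).

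Elavl3, a close relative of Elavl4, had values close together within each genotype at E13.5. It was 3.94, 4.05 and 3.96 in the mutants and 3.68, 3.63 and 3.69 in the controls, without overlap, and it was not tested because 1 array alone reached log2 4. At E14.5 Elavl3 lay between 1.05 and 1.26 on all 10 arrays. Rbfox3, the splicing factor known as the NeuN antigen, ran from 4.64 to 5.20 at E13.5 and from 1.89 to 2.37 at E14.5, and passed the filter through the E13.5 arrays alone. Its highest E13.5 value was in mutant 1, and mutant 2 lay near the lower end at 4.67. Pou4f1, a transcription factor of sensory neurons of the trigeminal and dorsal root ganglia, lay between 1.14 and 2.00 on all 16 arrays. At E13.5 it was the only neuron gene for which every mutant array, at 1.41, 1.59 and 1.50, was below every control array, at 1.70, 1.70 and 2.00, and at these low levels it was not tested.

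Isl1 encodes a LIM homeodomain factor of sensory and autonomic neurons that is also made in other embryonic tissues. At E13.5 it was 6.18, 6.01 and 6.02 in the mutants and 6.00, 5.97 and 6.11 in the controls. At E14.5 it was 5.76, 5.86, 5.70, 5.30 and 5.95 in the mutants and 5.38, 4.98, 5.61, 5.30 and 5.50 in the controls. E14.5 control 2, high for the stathmins, was here the lowest of the 10 arrays. The E14.5 difference was 0.36 ± 0.12 (n = 5 and 5), with an unadjusted p of 0.0103 and an adjusted p of 0.139 by limma. It was 0.63 in batch 1 and 0.18 in batch 2. Isl1 passed the test with the mean over its probe sets (adjusted p = 0.0381) and without E14.5 mutant 4 (adjusted p = 0.0281).

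The genes of synapses and vesicle release divided in the same way. Snap25 encodes a membrane protein of the vesicle fusion machinery. It was 1.98, 3.48 and 1.57 in the E13.5 mutants and 1.38, 1.77 and 1.54 in the controls. The E14.5 values were 2.12, 1.63, 2.85, 1.34 and 1.53 in the mutants and 1.57, 2.51, 1.34, 1.68 and 1.06 in the controls. Snap25 was not tested, and its high arrays were E13.5 mutant 2, at 3.77-fold the median of the others, E14.5 mutant 3 and E14.5 control 2. Syt1, the calcium sensor of vesicle release, passed the filter through the E13.5 arrays alone, where it ran from 4.16 to 4.46, and lay between 1.37 and 1.79 at E14.5. Syp, a protein of the vesicle membrane, ran from 3.22 to 3.45 at E13.5 and Vsnl1, a neuronal calcium-binding protein, from 3.77 to 4.00. None of these last 3 genes had an array that stood apart at E13.5.

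The granins are proteins of dense-core vesicles, which store peptide hormones and transmitters in neurons and endocrine cells. Their promoters are shown because the 3 genes had different patterns over the arrays of both stages, and that of Stmn3 because it had the widest spread between arrays. RefSeq windows of 300 bases, from 250 before to 50 after the gene start in build GRCm38.p6, were found for 20 of the 28 genes. The cyclic AMP response element was searched as TGACGTCA, which reads the same on both strands, a variant of it as TGACGTAA on both strands, and an E-box of proneural factors as CATCTG on both strands (CAGATG on the other); these do not overlap each other in the windows printed. The first was in 1.79% of 32851 windows and in those of Chgb, Scg2 and Th. The variant was in 0.499% of windows and in that of Chga among the neuron genes. The E-box was in 17.2% of windows and in those of Elavl4, Rtn1, Stmn3 and Vsnl1. Capitals mark the match, which describes the letters alone. The Scg2 window is chr1:79439977-79440276, minus strand, with its match 68 bases before the start. That of Chgb is chr2:132781392-132781691, plus strand, with its match 72 bases before. That of Chga is chr12:102554691-102554990, plus strand, with its match 44 bases before. That of Stmn3 is chr2:181314451-181314750, minus strand, with its match 75 bases before.
Scg2: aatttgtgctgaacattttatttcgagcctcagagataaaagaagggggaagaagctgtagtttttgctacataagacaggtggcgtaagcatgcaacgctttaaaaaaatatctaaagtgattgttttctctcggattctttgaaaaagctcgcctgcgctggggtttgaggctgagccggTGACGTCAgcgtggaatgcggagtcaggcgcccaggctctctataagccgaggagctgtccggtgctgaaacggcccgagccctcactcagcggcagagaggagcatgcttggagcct
Chgb: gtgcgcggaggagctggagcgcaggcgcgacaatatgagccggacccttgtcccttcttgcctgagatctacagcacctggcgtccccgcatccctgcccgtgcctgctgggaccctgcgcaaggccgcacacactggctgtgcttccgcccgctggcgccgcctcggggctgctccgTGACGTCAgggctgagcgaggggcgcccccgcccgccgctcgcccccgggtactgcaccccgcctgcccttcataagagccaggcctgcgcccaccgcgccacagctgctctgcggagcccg
Chga: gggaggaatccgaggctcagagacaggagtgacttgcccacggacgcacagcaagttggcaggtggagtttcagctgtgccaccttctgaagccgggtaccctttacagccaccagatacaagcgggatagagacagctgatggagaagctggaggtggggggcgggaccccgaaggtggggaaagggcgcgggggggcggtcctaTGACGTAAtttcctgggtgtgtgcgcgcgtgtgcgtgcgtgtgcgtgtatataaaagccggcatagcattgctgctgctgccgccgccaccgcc
Stmn3: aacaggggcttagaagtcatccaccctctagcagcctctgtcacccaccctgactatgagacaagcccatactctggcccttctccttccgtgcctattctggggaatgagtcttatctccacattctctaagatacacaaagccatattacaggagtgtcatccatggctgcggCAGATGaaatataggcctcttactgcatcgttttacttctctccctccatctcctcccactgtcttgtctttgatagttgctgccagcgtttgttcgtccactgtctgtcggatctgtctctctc

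Scg2 was the neuron gene with the lowest unadjusted p at E13.5. Its values were 3.82, 4.17 and 4.07 in the mutants and 2.62, 3.06 and 2.89 in the controls, so that all 3 mutants lay above all 3 controls, and mutant 2 did not stand apart from the other mutants. The difference was 1.16 ± 0.44 (n = 3 and 3), a fold of 2.24, with an unadjusted p of 0.0182 and an adjusted p of 0.425 by limma. It passed the test in a fit of the E13.5 arrays alone (adjusted p = 0.0383 by limma). At E13.5 Scg2 reached log2 4 in mutants 2 and 3 and in no control. Its entry into the test was thus not independent of this difference. The spread of Scg2 in the joint fit comes largely from E14.5, where it was 3.27, 3.06, 3.66, 3.01 and 2.73 in the mutants and 2.74, 4.14, 2.20, 4.28 and 2.72 in the controls. Controls 2 and 4 were the highest arrays and control 3 the lowest. The E14.5 difference was -0.07 ± 0.34 (adjusted p = 0.946 by limma), and the change of the genotype effect from E13.5 to E14.5 was -1.23 ± 0.55 (unadjusted p = 0.0421, adjusted p = 0.468).

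Chgb was 2.47, 3.84 and 1.97 in the E13.5 mutants and 2.50, 2.34 and 2.20 in the controls, with mutant 2 alone apart. In the E14.5 set it was 2.64, 2.73, 2.54, 2.04 and 2.74 in the mutants and 2.96, 3.27, 3.00, 2.99 and 3.38 in the controls. Every E14.5 mutant was below every control, and the difference was -0.58 (95% interval -1.13 to -0.04). It was -0.44 in batch 1 and -0.68 in batch 2, and Chgb was not tested because no array reached log2 4. E14.5 mutant 3, the highest array for 13 neuron genes, was thus among the low arrays for Chgb. Chga ran from 2.59 to 2.97 at E13.5. On the E14.5 arrays it read 1.16, 1.05, 1.21, 1.22 and 1.05 in the mutants and 1.04, 1.04, 0.95, 1.00 and 0.91 in the controls, higher in every mutant by values at the low end of the scale.

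Among the growth cone and cell body proteins, Rtn1 spread more widely than Gap43. Rtn1 encodes a reticulon of the endoplasmic reticulum of neurons and endocrine cells. It was 4.81, 6.06 and 4.20 in the E13.5 mutants and 4.37, 4.35 and 4.41 in the controls. The E14.5 values were 4.76, 3.89, 5.85, 3.32 and 4.04 in the mutants and 4.47, 5.06, 3.63, 4.29 and 3.05 in the controls. E13.5 mutant 2 was 3.22-fold and E14.5 mutant 3 was 3.51-fold the median of the other arrays of its stage. Gap43, a protein of the growth cone membrane, was 7.15, 7.67 and 6.95 in the E13.5 mutants and 7.07, 6.99 and 7.10 in the controls. In the E14.5 set it was 6.83, 6.71, 7.24, 6.77 and 6.86 in the mutants and 7.08, 6.97, 7.08, 6.95 and 6.39 in the controls, with mutant 3 the highest array and control 5 the lowest.

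Uchl1, a ubiquitin hydrolase abundant in neuron cell bodies and axons, had the lowest unadjusted p of the neuron genes at E14.5. At E13.5 it was 4.90, 5.67 and 4.79 in the mutants and 4.69, 4.81 and 4.46 in the controls. On the E14.5 arrays it read 4.43, 3.80, 4.19, 3.89 and 3.81 in the mutants and 3.46, 3.79, 3.34, 3.79 and 2.84 in the controls. All 5 mutants lay above all 5 controls, the nearest of them by less than the spread within either group. The difference was 0.58 ± 0.19 (n = 5 and 5), a fold of 1.50, with an unadjusted p of 0.00933 and an adjusted p of 0.133 by limma. It was 0.49 in batch 1 and 0.65 in batch 2, and at E13.5 it was 0.47 ± 0.25 (adjusted p = 0.579).

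The genes of neuron subtype and excitability were low on these arrays. Th, the rate-limiting enzyme of catecholamine synthesis, lay between 1.93 and 2.12 at E13.5 and between 0.53 and 0.71 at E14.5. Scn9a, a sodium channel of sensory and sympathetic neurons, lay between 0.98 and 1.71 on all arrays. Ret, the receptor tyrosine kinase for ligands of the GDNF family, was 3.15, 3.38 and 3.36 in the E13.5 mutants and 2.99, 2.91 and 2.62 in the controls. The Ret groups did not overlap at E13.5. The E14.5 values were 2.79, 3.08, 3.35, 2.64 and 2.33 in the mutants and 2.72, 3.27, 2.66, 2.75 and 2.74 in the controls, with mutant 3 and control 2 the high arrays. None of these 3 genes was tested.

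No neuron gene passed the test between genotypes at either stage, or for the difference between the stages' genotype effects. At E13.5, 0 of the 14 tested were called by limma, where 0.099% of all genes tested were called, and at E14.5 0 of 14, where 2.63% were called. For the difference of effects 0 of 14 were called, where 0.117% of all genes were. At an unadjusted p below 0.05 there were 1 at E13.5 (Scg2), 2 at E14.5 (Isl1 and Uchl1) and 1 for the difference (Scg2), against 9.54%, 17.3% and 10.4% of all genes tested. With the variance fitted as a trend and robustly, the counts called were again 0.

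By values that do not overlap, 3 of the 28 (Elavl3, Scg2 and Ret, 10.7%) were higher in every E13.5 mutant, where 6.9% of all genes measured were, and 1 (Pou4f1, 3.57%) was lower, where 9.47% were. At E14.5, 2 of the 28 (Chga and Uchl1, 7.14%) were higher in every mutant, where 2.02% of all genes were, and 1 (Chgb, 3.57%) was lower, where 1.6% were. These shares rest on 1 to 3 genes each, and on the probe set kept for each gene. On their other probe sets the E13.5 groups overlapped for Elavl3 and Pou4f1, and did not for Ret. The 3 genes apart at E13.5 and the 2 apart in the same direction at E14.5 have no gene in common.

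The median difference over the 28 genes was 0.21 at E13.5, with 25 of the 28 above 0, beside -0.01 over all genes measured. In the E14.5 set it was 0.14, with 22 of the 28 above 0, beside 0.01 over all genes. Both medians moved with the arrays that stood apart. Without E13.5 mutant 2 the E13.5 median was 0.07, and without E14.5 mutant 3 the E14.5 median was -0.04. Within E14.5 batch 1, which holds control 2, the median was -0.10, and within batch 2, which holds mutant 3, it was 0.17. Without E13.5 mutant 2, E14.5 mutant 3 and E14.5 control 2 together, a setting chosen after seeing the data, the medians were 0.07 and 0.04, and again 0 members were called.

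**Figure D3:**
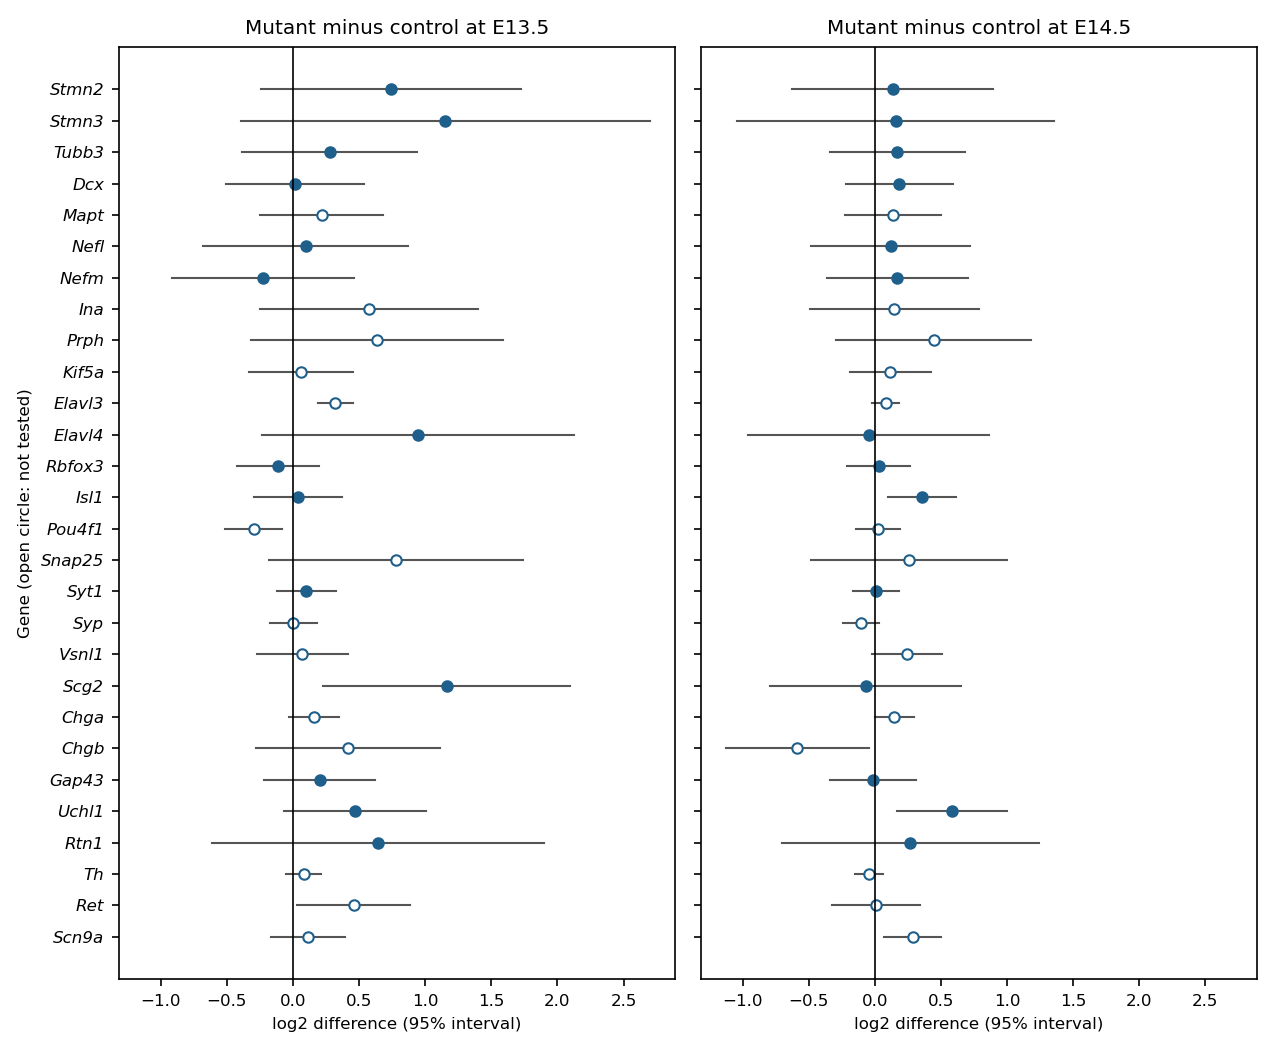
Log2 difference between mutants and controls for each of the 28 neuron genes at E13.5 (left) and E14.5 (right), with the 95% interval of the joint limma fit. Open circles are genes that were not tested. Intervals are widest for Stmn3, Rtn1 and Elavl4.

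The spread within groups set these intervals. With group means taken out, 10 of the 14 tested neuron genes varied more than 97% of the genes tested: Stmn3, Rtn1, Elavl4, Stmn2, Scg2, Nefl, Nefm, Tubb3, Uchl1 and Dcx. Elavl4 passed the filter only through E13.5 mutant 2, E14.5 mutant 3 and E14.5 control 2, the arrays that stood apart, and Scg2 only through E13.5 mutants 2 and 3 and E14.5 controls 2 and 4, so a wide spread of these genes is in part fixed by how they came to be tested. The others were Gap43 (percentile 95.9), Isl1 (91.6), Rbfox3 (89.0) and Syt1 (70.2). At E13.5 the 95% interval of the genotype difference ran from -0.40 to 2.70 for Stmn3 and from -0.24 to 1.73 for Stmn2.

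Few genes of any kind stood out in E13.5 mutant 2, and many of those that did were neuron genes. In all, 11 of 18193 genes (0.0605%) were at least 1 log2 unit above each of the other 5 arrays there, and 6 of the 11 were Stmn2, Stmn3, Elavl4, Snap25, Chgb and Rtn1. The other 5, named after their values were seen, were Phox2a, Hand2, Chrna7, Olfr78 and Zfp804a, of which Phox2a and Hand2 encode transcription factors of autonomic neurons. No gene was that far above all other arrays in E14.5 mutant 3 or control 2. Set against the median of the other 9 arrays, 7 of the 28 were at least 1 log2 unit higher in mutant 3. The share of all genes was 0.0934%. In control 2, 6 of the 28 were, against 0.11% of all genes, and in E13.5 mutant 2, 10 were, against 0.121%. In E14.5 mutant 1, by contrast, 9 genes were at least 1 log2 unit above all other arrays, and none was among the 28. They included Myod1, Mb and Tnni2, genes of skeletal muscle that are named here after their values were seen.

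Other probe sets of 4 of the genes had the same high array. Of the 35 further probe sets of the 28 genes, 6 reached log2 4 on at least 3 arrays. Those of Stmn2, Stmn3, Nefl and Elavl4 were again highest at E13.5 in mutant 2, and those of Dcx and Isl1 were not. The Stmn3 set reached log2 4 only in E13.5 mutant 2 (5.19), E14.5 mutant 3 (4.78) and E14.5 control 2 (4.52). Its high array was therefore fixed by that threshold. The second Stmn2 probe set read 5.04, 6.43 and 4.42 in the E13.5 mutants and 4.61, 4.56 and 4.03 in the controls. At E14.5 it read 6.33 in mutant 3 and 5.65 in control 2, against at most 5.07 elsewhere.

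Genes that mark kinds of neuron were set beside the members to describe these arrays. For the autonomic neuron genes the mean over the 13 measured was 3.47, 3.69 and 3.40 in the E13.5 mutants and 3.14, 3.02 and 3.01 in the controls, without overlap. On the E14.5 arrays it was highest in mutant 3 (2.21) and control 2 (2.09). Without Vip, left out after its values were seen, the mean over the other 12 at E14.5 was 1.94 in mutant 3, 1.88 in mutant 1 and 1.87 in control 2, so that control 2 no longer stood above mutant 1. By gene the arrays were less uniform. At E13.5, mutant 3 was highest for 6 of the 13 (Dbh, Gata3, Chrnb4, Slc6a2, Chat and Slc18a3) and mutant 2 for 5 (Phox2a, Hand2, Chrna3, Ddc and Vip). At E14.5, mutant 3 was highest for 5 of the 13 and control 2 for 0, while Dbh and Slc6a2 were highest in control 4 and Slc18a2 and Nos1 in control 1. Of the 5 autonomic genes tested none was called at either stage. The smallest unadjusted p at E13.5 was that of Dbh, which makes noradrenaline from dopamine, with a difference of 0.36 ± 0.12 (adjusted p = 0.363 by limma).

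Of the 13 autonomic genes, Hand2 and Vip had their high values on the arrays that stood apart for the members. Hand2, which was singled out after its values were seen, was 3.95, 5.23 and 3.37 in the E13.5 mutants and 2.58, 2.42 and 2.37 in the controls. Its highest E14.5 values were 3.16 in mutant 3 and 2.36 in control 2. Vip encodes a transmitter peptide of parasympathetic neurons and was likewise singled out. Vip was 3.52, 4.31 and 2.61 in the E13.5 mutants and 1.96, 2.37 and 1.96 in the controls. At E14.5 Vip was 3.62, 1.95, 5.43, 2.20 and 2.01 in the mutants and 2.94, 4.69, 1.79, 3.09 and 1.92 in the controls. Mutant 3 and control 2 were again the high arrays, at 9.41-fold and 5.62-fold the median of the other 9. Vip reached log2 4 only on E13.5 mutant 2, E14.5 mutant 3 and E14.5 control 2. It thus passed the filter only through the arrays that stood apart. Hand2 is also made in mesenchyme of the lower jaw.

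The mean of the 12 sensory neuron genes measured varied little between the arrays of a stage. Trpv1, a heat-gated channel of pain fibres, lay at or below 1.48 on all 16 arrays, Scn10a at or below 2.02, P2rx3 at or below 3.07 and Neurod1 at or below 1.57. The list was not low throughout. Its 4 tested genes, Ntrk2, Ntrk3, Runx1 and Tac1, had the higher means given below. The mean over the 12 sensory genes measured ran from 3.47 to 3.68 at E13.5, with mutant 3 the highest and mutant 2 at 3.53. At E14.5 it ran from 2.48 to 2.67, with mutant 3 the highest, as for the members, and control 2 at 2.55. The mean over the 4 sensory genes tested was 5.35 to 5.58 in the E14.5 mutants and 5.16 to 5.33 in the controls. These means did not overlap, and all 4 differences were above 0. For Tac1 the E14.5 difference was 0.51 ± 0.17 (unadjusted p = 0.0106, adjusted p = 0.142 by limma). At E13.5 the same means overlapped, at 6.03 to 6.09 in the mutants and 5.90 to 6.19 in the controls. At E14.5, where 2.63% of all genes tested were called between genotypes, 1 of the 4 sensory genes tested was called, higher in mutants. This was Ntrk2, the receptor for BDNF, which non-neuronal cells also make. It was 6.36, 6.17, 6.15, 6.32 and 6.42 in the mutants and 5.82, 5.86, 5.65, 5.97 and 6.04 in the controls, a difference of 0.41 ± 0.09 (adjusted p = 0.0246 by limma). The call was kept in 18 and lost in 9 of 27 alternatives, with adjusted p from 0.0147 to 0.168 by limma. Among those that lost it were the fits without E14.5 mutant 1 or 5 and without E14.5 control 2 or 3. It was also lost within either batch alone, where the difference was 0.42 in batch 1 and 0.41 in batch 2.

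Markers of other cells were measured beside the neuron genes. The mean over 12 Schwann cell and glia markers was 3.82 in E13.5 mutant 2, within the range of 3.74 to 3.91 of the stage, and 2.76 in E14.5 mutant 3, within 2.62 to 2.85. E14.5 control 2 was the highest array of its stage for this list, at 2.85, beside mutant 1 at 2.85, and it was highest for 5 of the 12 markers (Foxd3, Fabp7, Cdh19, S100b and Gjc3). The part of these cells in the neuron values of that array was not tested. Sox10, the defining factor of these cells, was 4.87 in E13.5 mutant 2, against 4.68 to 5.05 over the stage. Of 20 skeletal muscle markers, 15 were highest in E13.5 mutant 1 and 19 in E14.5 mutant 1, and none was highest in E13.5 mutant 2, E14.5 mutant 3 or E14.5 control 2. The muscle markers had a median difference of 0.63 at E13.5 and 0.46 at E14.5, with 0 of 18 tested called at either stage, and their part in the neuron values was not tested. The mean over the 20 muscle markers was 6.37 to 6.71 in the E13.5 mutants and 5.82 to 6.11 in the controls, without overlap, and 5.20 to 6.46 and 4.51 to 5.78 at E14.5. Of 11 oral epithelium markers, 6 were called higher in mutants at E14.5, where 2.63% of all genes tested were called, and none passed at E13.5. The mean over the 11 markers was 7.39 to 7.71 in the E14.5 mutants and 7.03 to 7.15 in the controls. Their part in the E14.5 values of Uchl1, Isl1, Chgb and Ntrk2 was not tested.

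**Figure D4:**
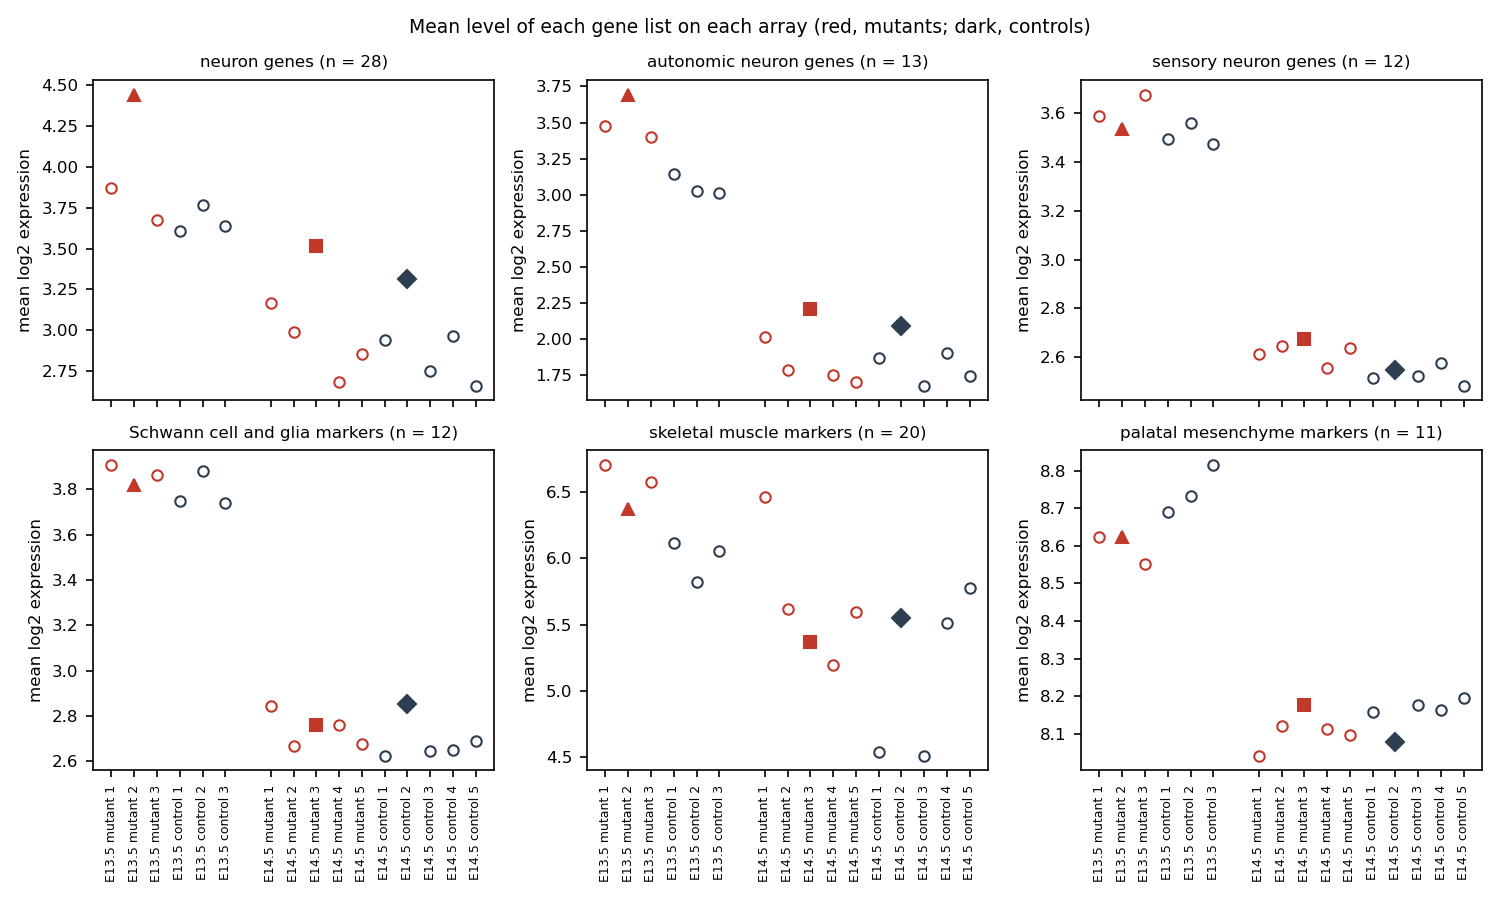
Mean log2 level of 6 gene lists on each of the 16 arrays (red, mutants; dark, controls). The filled triangle is E13.5 mutant 2, the square E14.5 mutant 3 and the diamond E14.5 control 2. These have the highest means for the neuron genes (4.44 at E13.5, 3.52 and 3.31 at E14.5) and the autonomic neuron genes (3.69, 2.21 and 2.09, the last at 1.87 without Vip), but not for the muscle or mesenchyme markers; E14.5 mutant 3 is also highest for the sensory genes and control 2 for the glia markers.

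Other neuron genes and the genes that draw nerves into a target gave a mixed picture. Of 10 further pan-neuronal genes tested 0 passed at either stage, with 17 of 19 measured above 0 at E13.5 (median 0.14) and 14 of 19 at E14.5 (median 0.09). Their mean over the 19 was 4.49, 4.54 and 4.44 in the E13.5 mutants and 4.33, 4.31 and 4.25 in the controls, without overlap and with mutant 2 little above mutant 1. At E14.5 it was highest in mutant 3, at 3.06, and control 2 was at 2.89, highest for 0 of the 19. The smallest unadjusted p among them at E13.5 was that of Nsg2, an endosomal protein of neurons, with a difference of 0.51 ± 0.16 (adjusted p = 0.352 by limma). Of 6 further synapse genes tested 0 passed at either stage. Of 9 genes for secreted nerve growth and guidance factors, 1 was called higher in mutants at E14.5, where 2.63% of all genes tested were called. This was Nrtn, which encodes neurturin, a survival factor for parasympathetic neurons that acts through Ret. It passed the filter through the E13.5 arrays, and its E14.5 values lie below log2 4. Nrtn was 3.26, 3.21, 3.09, 3.13 and 3.19 in the mutants and 3.01, 2.78, 2.94, 2.62 and 3.01 in the controls, a difference of 0.31 ± 0.07 (adjusted p = 0.0374). Of 10 genes for their receptors, 1 was called lower in mutants at E14.5. This was Nrp2, a receptor for class 3 semaphorins, which was 7.13, 7.25, 7.29, 7.45 and 7.18 in the mutants and 7.57, 7.49, 7.56, 7.48 and 7.53 in the controls, a difference of -0.27 ± 0.06 (adjusted p = 0.0374). All E14.5 mutants lay above all controls for Nrtn and below them for Nrp2, and neither gene was called at E13.5. Both calls depended on single arrays. Nrtn remained past the threshold in 4 and Nrp2 in 2 of the 10 fits that each left out 1 E14.5 array, with the lost calls for Nrtn being those without mutants 1, 2, 4 and 5 and controls 2 and 4, and the calls kept for Nrp2 being those without mutant 4 or control 4. Over all 28 alternatives the differences ran from 0.25 to 0.37 for Nrtn, with adjusted p from 0.0212 to 0.209 by limma, and from -0.34 to -0.19 for Nrp2, with adjusted p from 0.0179 to 0.270.

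Between the stages the neuron genes cannot be placed without choosing a scale. On the deposited values 8 of the 14 tested were called lower at E14.5 in controls, where 74.9% of all genes tested were called lower. In mutants 9 of 14 were called lower, where 72% of all genes tested were. By sign alone, 4 of the 14 had a difference above 0 in controls and 0 in mutants, beside 1928 and 2197 of all 11115 genes tested. The median over the 28 genes was -0.52 in controls and -0.65 in mutants, beside -0.85 and -0.84 over all genes measured. Centring the arrays on their medians gave 1.23 and 1.14 for the neuron genes, and after quantile normalization of all 16 arrays the medians were 0.64 and 0.49. The direction of the change with stage was thus set by the scaling.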

How the data were processed

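RNA from 16 palate samples was hybridised to Affymetrix arrays, 1 per sample. The authors deposited 1 table of log2 values per probe set. Per the submitters' processing notes these were made by GCRMA, and how many normalization runs were made is not given in the sources used here. Of 45101 probe sets, 34945 carried 1 gene in the platform annotation, 932 several and 9160 none, and 64 controls were left out. For each of 18193 genes the probe set with the highest mean was kept, and the 11115 with log2 4 or more on at least 3 arrays were tested.

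Differences were fitted with limma 3.58.1 (R 4.3.3, lmFit and eBayes) over all 16 arrays in 1 model of the 4 stage-by-genotype groups, with the labelled batch as a term within E14.5. P-values were adjusted by Benjamini-Hochberg over all genes tested, with calls at 0.05. Errors are moderated standard errors on the log2 scale. Values of untested genes come from the same model fitted to all genes, with no p. The fit was tested on simulated data with known changes.

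The neuron genes and all other lists were chosen with earlier results of these data known. Every neuron gene is named; in other lists, up to 3 tested genes with the smallest unadjusted p per genotype contrast and the defining markers could be named. Replicates correlated at 0.993 or more within groups over all genes tested, and no 2 arrays held identical values. Same-numbered mutants and controls had deviations from their group means correlated between -0.45 and 0.17, so the numbers were not taken as pairs. Alternatives were no filter, the mean over probe sets, centring, quantile normalization over all arrays or within stages, no batch term, a replicate block, a trended robust variance, 1 stage or batch alone, and leaving out arrays. Hybridisation has no read depth; the number of arrays limits the precision. Promoter windows were read from a RefSeq table; no genome sequence was used.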

Additional observations from a re-analysis of the deposited data

Results flagged for a closer look

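In groups of 5 arrays, 58 sets of values were examined for an array whose gap to the nearest other array was large for the range of its group, by Dixon's criterion, and 5 met it. Chance flags about 1 in 20 such groups. Kif5a in the E14.5 mutants was 2.00 in mutant 3, above the other 4 mutants. Gap43 was 7.24 in E14.5 mutant 3, above the other 4 mutants, and 6.39 in E14.5 control 5, below the other 4 controls. Ret was 3.27 in E14.5 control 2, above the other 4 controls. Chgb was 2.04 in E14.5 mutant 4, below the other 4 mutants. Of the 5 values, 3 thus come from the arrays on which the mean over the neuron genes was highest in their group. The others come from the arrays on which it was lowest, E14.5 mutant 4 (2.69) and E14.5 control 5 (2.66). Each flagged gene is itself part of that mean. The E13.5 groups of 3 arrays were not examined in this way.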

How the results depend on the processing

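The counts of neuron genes called between genotypes were 0 at both stages and for the difference of effects, except for 1 at E13.5 (Scg2) with the E13.5 arrays alone, 1 at E14.5 (Isl1) with the mean over probe sets, where 10 members were tested, and 0 to 1 at E14.5 when each array was left out in turn (Isl1 without mutant 4). The replicate block, whose numbers were not taken as pairs, left the counts at 0 and the medians at 0.21 and 0.14. With that block the E14.5 calls of Nrtn (adjusted p = 0.0671) and Nrp2 (adjusted p = 0.0779) were lost. Members called between stages were 16 in controls and 18 in mutants with no filter, 5 in controls with the mean over probe sets, and 4 in mutants after quantile normalization of all arrays. With probe sets averaged the stage medians were -1.05 and -1.15; they were 1.23 and 1.14 centred, and 0.64 and 0.49 quantile normalized; the cause was not tested beyond the shift in scale. In mutants the stage median ran from -1.04 to -0.40 when each array was left out, with -0.95 without E13.5 mutant 3 and -1.04 without E14.5 mutant 3.

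Members that changed sign had adjusted p of 0.638 or more in each such setting. With the mean over probe sets Stmn3 was -0.018 at E14.5, and centred Dcx was -0.022 at E13.5. For the difference of effects, quantile normalization gave Nefl -0.12 and Uchl1 -0.20 over all arrays and Nefl -0.056 within stages. E14.5 batch 1 alone gave Stmn2 -0.26, Stmn3 -0.33, Tubb3 -0.11, Rbfox3 -0.051, Syt1 -0.11 and Rtn1 -0.44. Batch 2 alone gave Elavl4 0.31, Scg2 0.067 and Gap43 0.15, and for the difference of effects Tubb3 0.079 and Rtn1 0.098. Without E14.5 controls 1 and 3, the arrays with the lowest muscle marker means, E14.5 gave Stmn3 -0.22, Tubb3 -0.031, Rbfox3 -0.013, Syt1 -0.0089 and Gap43 0.11. Leaving out each array in turn changed the sign of further members. For the E13.5 genotype difference the ranges were Dcx -0.089 to 0.21, Isl1 -0.015 to 0.080, Tubb3 -0.14 to 0.59, Nefl -0.088 to 0.26 and Gap43 -0.0042 to 0.36. For the difference between the stages in genotype effect the ranges were Stmn2 -0.98 to 0.033, Tubb3 -0.42 to 0.31, Rtn1 -0.83 to 0.14, Dcx -0.021 to 0.33, Nefl -0.28 to 0.28 and Uchl1 -0.047 to 0.39. For the E14.5 genotype difference the ranges were Elavl4 -0.42 to 0.16, Gap43 -0.15 to 0.045, Syt1 -0.042 to 0.088, Stmn2 -0.15 to 0.29, Stmn3 -0.41 to 0.38, Nefl -0.19 to 0.37, Nefm -0.11 to 0.38, Rbfox3 -0.044 to 0.090, Rtn1 -0.19 to 0.51 and Scg2 -0.32 to 0.25. Intensities near the floor, where 14 of the 28 genes lie, and 3 arrays a group at E13.5 limit these comparisons.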
